A study of Mus musculus with 96 samples.

Results

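The fatty acid synthesis genes described here are Acaca, Acacb, Acly, Fasn, Scd1, Scd2, Elovl5, Elovl6, Srebf1 and Me1, chosen by name as enzymes and a transcription factor of fatty acid synthesis. All 10 were found in the expression tables of all 4 genotypes, among 22384 genes in all, and all 10 passed the filter, set at a mean level of 1 RPKM or more (reads per kilobase of gene length, scaled to the total of the library). RNA came from cells of back-skin epidermis, freed with dispase, of male C57BL/6 mice of 8 weeks. They lived on a daily cycle of 12 h light and 12 h darkness with food always available. At each of 6 times, 4 h apart, 4 mice per genotype were sampled, which gives 96 libraries. Times are in zeitgeber time (ZT), where ZT0 is lights on and ZT12 is lights off.

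The genotypes differ in where the clock gene Arntl can be expressed. WT mice were Arntl wt/wt and carried both Cre transgenes, K14Cre and Syt10-Cre. The other 3 genotypes were Arntl stopFL/stopFL, in which a stop sequence blocks Arntl until Cre removes it. RERE mice (brain and epidermis reconstituted) carried K14Cre and Syt10-Cre, EpiRE mice (epidermis reconstituted) carried K14Cre alone, and BRE mice (brain reconstituted) carried Syt10-Cre alone. K14Cre is driven by the promoter of keratin 14, which is active in basal keratinocytes and the skin appendages that arise from them. Syt10-Cre acts in the suprachiasmatic nucleus, the central clock of the brain, and in some other brain regions. Tissues that express neither Cre stay without Arntl in RERE, EpiRE and BRE, so these mice differ from WT in more than the epidermis and the brain.

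Fatty acid synthesis builds palmitate from cytosolic acetyl-CoA and NADPH. ATP citrate lyase (Acly) supplies the acetyl-CoA, malic enzyme (Me1) supplies part of the NADPH, acetyl-CoA carboxylase (Acaca, Acacb) makes malonyl-CoA, and fatty acid synthase (Fasn) joins the units. Elongases (Elovl5, Elovl6) and desaturases (Scd1, Scd2) then lengthen and desaturate the chain, and the transcription factor SREBP1 (Srebf1) activates many of these genes. In skin the products go into the lipid barrier of the stratum corneum and into sebum, and sebocytes are strongly lipogenic cells.

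Promoter sequences of 8 of the 10 genes were in the RefSeq table (build GRCm38.p6, 250 bases before to 50 bases after each start), as 11 promoters. Scd1 and Scd2 had no entry. Each was searched on both strands for a CCAAT box (CCAAT, bound by NF-Y, a common partner of SREBP), an E-box of the clock factors (CACGTG), a ROR element (TAGGTCA or TGGGTCA, also read by REV-ERB), a D-box (TTANGTAA) and a sterol element (TCACNCCAC). CCAAT was in 7 of the 11 promoters, against 37.4% of 32851 promoters of the same length. CACGTG was found in 1 (7.15% of all), TGGGTCA in 1 (6.45% for both forms), and the D-box and sterol letters in none (2.32% and 1.24% of all). The stretches below, all upstream of the start and read 5′ to 3′ on the strand of the gene, show where these letters lie, in capitals. ATTGG is CCAAT on the other strand.
Srebf1, chr11:60210477-60210521, minus strand: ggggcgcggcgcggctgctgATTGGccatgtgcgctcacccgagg
Me1, chr9:86696104-86696150, minus strand: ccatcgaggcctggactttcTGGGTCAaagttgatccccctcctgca
Fasn, chr11:120824582-120824657, minus strand: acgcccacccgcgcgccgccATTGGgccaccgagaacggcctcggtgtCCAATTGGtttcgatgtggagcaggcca
Elovl5, chr9:77917184-77917364, plus strand: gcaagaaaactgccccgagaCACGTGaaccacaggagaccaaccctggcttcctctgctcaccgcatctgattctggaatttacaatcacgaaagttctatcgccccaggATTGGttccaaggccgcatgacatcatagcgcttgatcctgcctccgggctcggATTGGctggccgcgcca
Fasn held 3 matches to CCAAT, of which a pair share letters, while the E-box letters stood in Elovl5 alone and the ROR letters in Me1 alone. A match describes the letters in this window and no more. Only these exact letters were searched, so the lack of a match does not show that a promoter has no such element.

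Depth, estimated from the floor that a prior count leaves in the tables, ran from 11000000 to 31600000 reads per library (median 16100000). The members rested on a median of 379 reads (Acacb) to 8504 reads (Scd1). Arntl itself ranged from 4.69 to 27.4 RPKM in WT, 4.77 to 26.5 in RERE and 9.56 to 24 in EpiRE, but only from 11.4 to 14.6 in BRE, and reads per gene cannot tell a blocked transcript from a restored one. Keratinocyte markers were abundant (8 of 8 measured markers above 1 RPKM, with a mean of 6280 RPKM for Krt5). All 9 adipocyte markers stayed under a mean of 1 RPKM, and their sum never passed 2.60 RPKM. All 4 endothelial markers did as well, with a highest sum of 0.353 RPKM. Markers of sebaceous glands moved between libraries. The summed level of 7 of them (Mc5r, Awat1, Awat2, Far2, Cidea, Pparg and Mgst1) ran from 6.98 to 93.1 RPKM in WT (median 27.5), 8.71 to 58.3 in RERE (median 17.2), 10.8 to 49.5 in EpiRE (median 17.0) and 9.15 to 29.0 in BRE (median 14.8). It passed 1.5 times the median of its genotype in 6 WT, 5 RERE, 5 EpiRE and 4 BRE libraries. The 6 in WT were at ZT0 (1 library), ZT4 (2), ZT8 (1) and ZT20 (2), and none was at ZT12 or ZT16. Mgst1 (mean 15.8 RPKM) weighed most in this sum, before Cidea (2.23) and Far2 (2.21). Mc5r, Awat1, Awat2 and Pparg each had a mean below 1 RPKM. The covariate used below is the mean of the log2 levels, which weighs all 7 alike. These 7 were taken from a list of 10 after seeing the data, and Krt79 (mean 290 RPKM), Elovl3 and Scd3 were left out. Over all 10 the median of the sum was 378 RPKM in WT, 330 in BRE and 241 in RERE, with EpiRE between RERE and BRE, so BRE was then next to highest and not lowest. In epidermis measured as a whole, fewer cells of a type and less RNA per cell cannot be told apart.

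Scd1, the delta-9 desaturase that makes oleate and palmitoleate, had the highest level per length in every genotype. In WT its mean was 121 RPKM ± 52.9 (SD, n = 24 mice over all times). Next came Acly at 60.9 ± 12.0, Me1 at 50.8 ± 12.6, Srebf1 at 42.3 ± 4.37, Fasn at 35.9 ± 5.94 and Elovl6 at 29.8 ± 13.3 RPKM. Elovl5 (16.9 ± 5.47), Scd2 (16.4 ± 7.79) and Acaca (12.6 ± 2.40) were lower, and Acacb was lowest at 3.21 ± 1.71 RPKM. Scd1 was above Acly, Elovl6 above Elovl5, and Acaca above Acacb in 24 of 24 WT libraries, and Srebf1 was above Fasn in 21. The other neighbours in this order (Acly and Me1, Me1 and Srebf1, Fasn and Elovl6, Elovl5 and Scd2, Scd2 and Acaca) differed on the log2 scale by less than 1 SD. The top and the bottom of the order were the same in the other genotypes. Acaca, the cytosolic carboxylase, was thus more abundant than Acacb, the form at the mitochondrial surface, by 2.10 in WT and 2.16 in RERE on the log2 scale of mean levels.

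**Figure D1:**
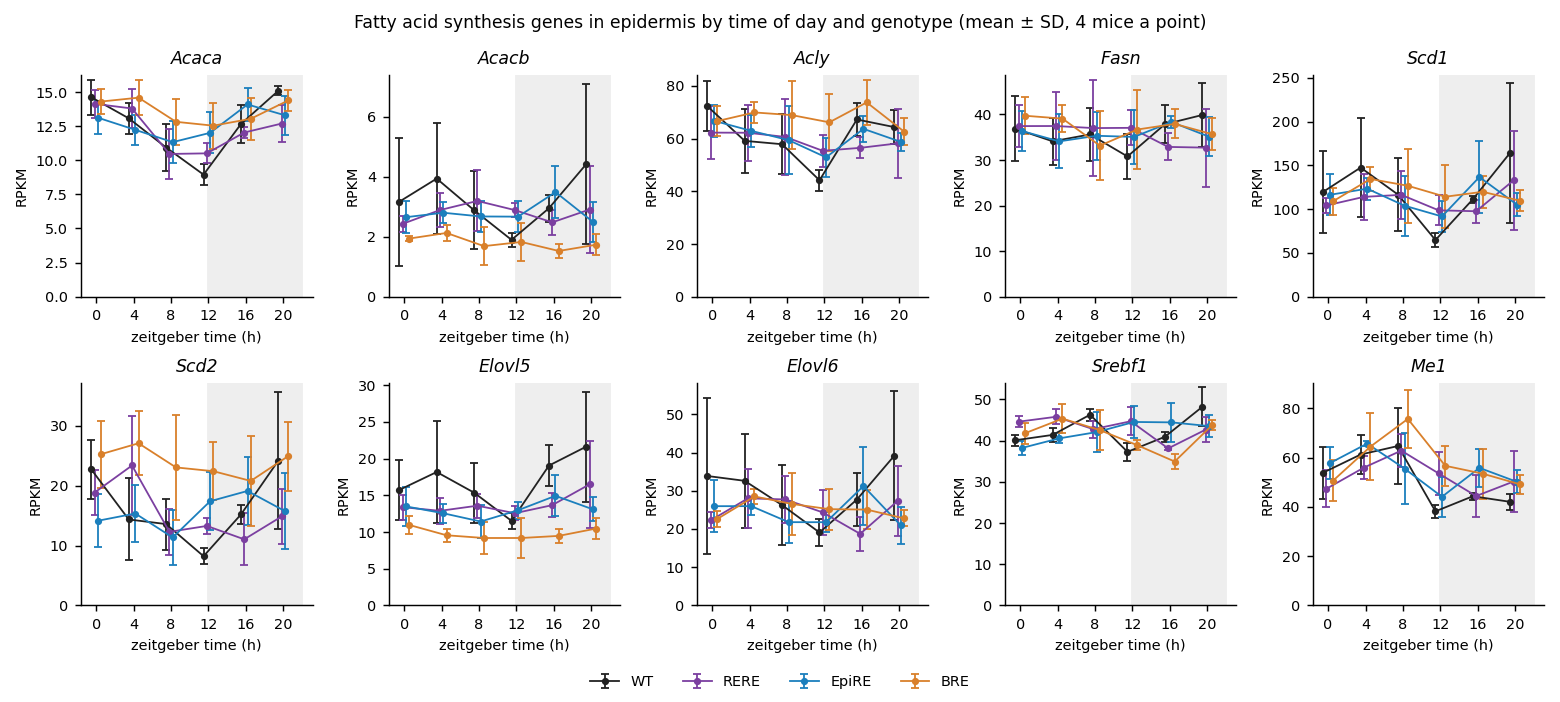
RPKM of each gene (vertical axes, starting at 0) against zeitgeber time (horizontal axes), as mean ± SD of 4 mice per point, with 1 line per genotype and the dark phase shaded up to the last time drawn. In WT (black) the lowest mean of Acaca, Scd2 and Scd1 is at ZT12, Srebf1 in WT has maxima at ZT8 and ZT20, and the BRE lines (orange) lie below the others in Acacb and Elovl5 and above them in Scd2 at every time.

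Daily rhythms were fitted within each genotype as a 24 h cosine curve over 24 libraries. Rhythm size below means the fitted peak minus the fitted trough on the log2 scale, and a gene is called at an adjusted p below 0.05 (limma, F test with 2 degrees of freedom, adjusted by Benjamini-Hochberg over 12144 genes). In WT, 4 of the 10 genes were called (Acaca, Scd2, Me1 and Acly), where 34.4% of all tested genes were. In RERE 2 were called (Acaca and Scd2, against 16.4% of all genes), and in BRE 2 (Me1 and Srebf1, against 17.1%). In EpiRE none was called, against 2.87% of all genes, and 3 (Acaca, Srebf1 and Me1) had an unadjusted p below 0.05. The shares in WT, RERE and BRE are near those of all genes. The median rhythm size of the 10 genes was 0.66 in WT (all tested genes 0.23), 0.25 in RERE (0.18), 0.23 in EpiRE (0.15) and 0.26 in BRE (0.20). A fitted size cannot be negative and also grows with the spread between mice, so these medians do not measure rhythm alone. In WT Scd1, Elovl6 and Acacb lay above or near the median with wide errors and were not called. Their sizes were smaller without the libraries high in sebaceous markers, as given below.

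**Figure D2:**
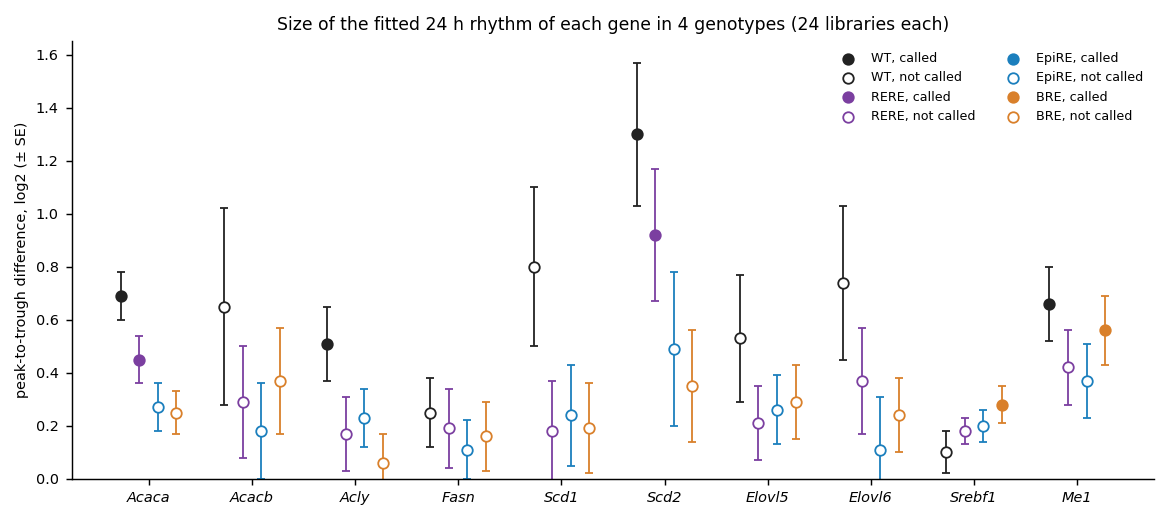
Fitted peak-to-trough difference of each gene (vertical axis, log2, ± SE) in the 4 genotypes, each from 24 libraries, with filled symbols for called rhythms. Scd2 in WT stands highest at 1.3, and the WT symbol is the highest of the 4 genotypes for every gene except Srebf1, where it is lowest at 0.10.

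Srebf1 (chr11:60199089-60222581, minus strand, build mm10) encodes SREBP1. The counts per gene do not separate its 1a and 1c forms. In BRE the 4 mice had 40.8, 44.9, 46.3 and 49.3 RPKM at ZT4 and 32.6, 34.8, 35.8 and 36.5 at ZT16. All 4 mice at ZT16 were below all 4 at ZT4, and below the mice of every other time but for 1 mouse at ZT8. The fitted rhythm in BRE had a size of 0.28 ± 0.07 and a peak at ZT2.81 ± 0.92 h (limma, adjusted p = 0.0208). It was no longer called after the libraries were rescaled by median-of-ratios factors (size 0.22, adjusted p = 0.0759) or without the 4 libraries high in sebaceous markers (0.25, adjusted p = 0.107), or without all libraries of replicate 2, 3 or 4 (adjusted p = 0.174, 0.0771 and 0.063). Fits without libraries rest on fewer mice. Over all genes the BRE calls fell from 2072 to 422 without those 4 libraries, and the cause was not tested.

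In EpiRE the mean level of Srebf1 was highest around lights off. The mice had 35.9, 38, 39.2 and 39.8 RPKM at ZT0, 40.9, 41.3, 47.9 and 48 at ZT12 and 39.7, 41.5, 46.2 and 50.2 at ZT16. All 4 values at ZT0 were below all at ZT12, and the ranges at ZT0 and ZT16 overlapped only at their edges. The fitted curve had a size of 0.20 ± 0.06 and a peak at ZT14.1 ± 1.2 h (adjusted p = 0.162, not called). In RERE, where the mice had 44.2, 44.5, 46.2 and 48.2 RPKM at ZT4 and 37.5, 38.2, 38.3 and 38.4 at ZT16, the ZT16 group lay below every other RERE mouse. The size there was 0.18 ± 0.05 with a peak at ZT4.08 ± 1.1 h (adjusted p = 0.0597, not called). Leaving out 1 library made it called for ZT8 replicate 2 (0.0362), ZT12 replicate 2, 3 or 4 (0.0368, 0.0268 and 0.0434) and ZT20 replicate 4 (0.0281).

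WT showed yet another course of Srebf1, with maxima at ZT8 and at ZT20. The mice had 44.6, 45.7, 46.6 and 48.2 RPKM at ZT8, 34.8, 36.7, 37.7 and 39.8 at ZT12 and 42.8, 46.6, 49.2 and 54.1 at ZT20. The ZT8 values were above every WT value at ZT0, ZT4, ZT12 and ZT16, and the ZT12 values were the lowest group, overlapping ZT0, ZT4 and ZT16 slightly. The 24 h curve had a size of only 0.10 ± 0.08 in WT (adjusted p = 0.626). With time as a factor in place of the curve, the limma test gave adjusted p = 0.00046 in WT and 0.0207 in RERE. That test asks for any difference among the 6 times and not for a daily curve.

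Acly (chr11:100476353-100528000, minus strand), which cleaves citrate to acetyl-CoA, was called in WT, with a size of 0.51 ± 0.14 and a peak at ZT22.3 ± 1.0 h (adjusted p = 0.0216). The WT mice had 61.6, 71.6, 71.6 and 84.6 RPKM at ZT0, 38.4, 45.3, 46.2 and 46.8 at ZT12 and 61, 65.5, 66.6 and 76 at ZT16. All 4 values at ZT12 were below all values at ZT0 and ZT16. In RERE the size was 0.17 ± 0.14, in EpiRE 0.23 ± 0.11 and in BRE 0.06 ± 0.11 (adjusted p = 0.648, 0.406 and 0.924). The WT call was lost without all libraries of replicate 1, 2 or 4 (adjusted p = 0.122, 0.0517 and 0.0731), and it was kept with the sebaceous markers as a covariate (0.42, adjusted p = 0.0425).

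Me1 (chr9:86581371-86695953, minus strand), which makes NADPH from malate, peaked in the light phase. In WT the mice had 52, 59.2, 63 and 71 RPKM at ZT4, 43.2, 64.3, 72.8 and 78.7 at ZT8 and 35.4, 37.9, 37.9 and 41.6 at ZT12. The ZT12 values lay below all others at these times, and 1 mouse at ZT8 was far below its group. The rhythm in WT had a size of 0.66 ± 0.14 and a peak at ZT4.37 ± 0.82 h (adjusted p = 0.00392).

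In BRE Me1 peaked later in the fit, at ZT7.59 ± 0.91 h, with a size of 0.56 ± 0.13 (adjusted p = 0.0194). The BRE mice had 63.3, 67.9, 85.8 and 86.1 RPKM at ZT8 and 46.4, 47.6, 48 and 54.7 at ZT20, 2 groups that did not overlap. In RERE the size was 0.42 ± 0.14 (peak ZT7.08, adjusted p = 0.0918) and in EpiRE 0.37 ± 0.14 (peak ZT2.26, adjusted p = 0.223). Without the libraries high in sebaceous markers the WT rhythm was 0.52 (adjusted p = 0.0609) and the BRE rhythm 0.46 (adjusted p = 0.105), while with those markers as a covariate both stayed called (adjusted p = 0.00212 and 0.027). Leaving out these libraries also lowered the calls over all genes, from 4174 to 3365 in WT and from 2072 to 422 in BRE. The BRE call was also lost with time as a factor (0.058) and without replicate 2, 3 or 4 (0.19, 0.074 and 0.0715). In RERE, leaving out the library of ZT20 replicate 4 gave adjusted p = 0.0227. Reads of 51 bases from 22.6% of the positions in Me1 transcripts also match the copies Gm7049 or Gm7329, and how such reads were counted is not given in the sources used here.

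Acaca (chr11:84129672-84401651, plus strand), which makes the malonyl-CoA for chain synthesis, had the smallest p of the 10 genes in WT and in RERE. The WT mice had 13.3, 14.2, 14.6 and 16.4 RPKM at ZT0, 11.7, 12.6, 13.6 and 14.4 at ZT4 and 8.34, 11.5, 11.8 and 12 at ZT8. They had 7.85, 9.01, 9.26 and 9.67 at ZT12, 11.1, 11.9, 13.4 and 14.2 at ZT16 and 14.6, 15.1, 15.1 and 15.5 at ZT20. The ZT12 group lay below every other group but for 1 low mouse at ZT8, and the ZT0 and ZT20 groups had the highest means. The rhythm had a size of 0.69 ± 0.09, or 1.62-fold, and a peak at ZT22.6 ± 0.52 h (adjusted p = 4.54e-05). It stayed called in every alternative run, with adjusted p up to 0.00213 when a replicate or library was left out, and with adjusted p = 8.12e-05 with the sebaceous markers as a covariate.

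In RERE Acaca had a size of 0.45 ± 0.09 and a peak at ZT23.5 ± 0.78 h (adjusted p = 0.00562). The mice had 13.3, 13.6, 14.1 and 15.6 RPKM at ZT0 and 10.1, 10.1, 10.3 and 11.6 at ZT12, with no overlap. In EpiRE, where the mice had 11.7, 12.8, 13.3 and 14.6 RPKM at ZT0, 9.86, 12.1, 13 and 13.1 at ZT12 and 13.3, 13.4, 13.9 and 15.8 at ZT16, the groups at ZT0 and ZT12 overlapped and ZT16 was the highest, and the size was 0.27 ± 0.09 (peak ZT19.4, adjusted p = 0.154). In BRE it was 0.25 ± 0.08 (peak ZT23.9, adjusted p = 0.0905). For 30.3% of the positions in Acaca transcripts a read of 51 bases also matches another annotated gene, mainly the copy Gm5182.

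Acacb (chr5:114146535-114250761, plus strand), whose malonyl-CoA restrains fatty acid import into mitochondria, was called in no genotype. Its fitted size in WT was 0.65 ± 0.37 (adjusted p = 0.348), with a wide spread among mice of 1 time, such as 1.94, 2.37, 6.01 and 7.36 RPKM at ZT20. In the 6 WT libraries high in sebaceous markers Acacb was between 4.68 and 7.36 RPKM, and in the other 18 between 1.74 and 3.42. Without those 6 libraries the WT size was 0.26 (adjusted p = 0.565). The sizes of Acacb were 0.29 ± 0.21 in RERE, 0.18 ± 0.18 in EpiRE and 0.37 ± 0.20 in BRE.

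Fasn (chr11:120805846-120824547, minus strand), the synthase itself, had the flattest course of the enzymes in WT, with a size of 0.25 ± 0.13 (adjusted p = 0.289). Over all 24 mice it ranged from 23.9 to 48.2 RPKM in WT with a median of 35.1, from 22.2 to 47.4 in RERE (median 36.0), from 27.0 to 42.9 in EpiRE (median 36.9) and from 23.4 to 42.4 in BRE (median 38.1). The ranges overlapped broadly. Its sizes in RERE, EpiRE and BRE were 0.19 ± 0.15, 0.11 ± 0.11 and 0.16 ± 0.13, with adjusted p between 0.626 and 0.812.

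Scd2 (chr19:44293674-44306864, plus strand), a desaturase close in sequence to Scd1, had the largest fitted rhythm of the 10 genes. In WT the mice had 17.8, 19.2, 26.4 and 27.3 RPKM at ZT0, 6.48, 7.89, 8.94 and 9.56 at ZT12 and 14.9, 18.1, 23.1 and 40.6 at ZT20. All 4 mice at ZT12 lay below all mice at ZT0, ZT16 and ZT20, and 1 mouse at ZT20 stood far above the rest. The rhythm in WT was 1.3 ± 0.27, or 2.47-fold, with a peak at ZT22.3 ± 0.79 h (adjusted p = 0.00285). Without the 6 libraries high in sebaceous markers it was 1.12 (adjusted p = 0.0176).

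In RERE Scd2 peaked at ZT2.08 ± 1.0 h with a size of 0.92 ± 0.25 (adjusted p = 0.0347). The mice had 18.1, 19.3, 20.4 and 35.6 RPKM at ZT4 and 7.52, 7.96, 11.8 and 16.9 at ZT16, which do not overlap. The RERE call was lost without any filter on low genes (adjusted p = 0.0638), with time as a factor (0.0726) and without the libraries high in sebaceous markers (0.0863). It was also lost when replicate 1, 3 or 4 was left out (adjusted p = 0.124, 0.19 and 0.105), or any 1 of 7 libraries, namely ZT0 replicate 2 (0.0568) or 3 (0.063), ZT4 replicate 2 (0.0553), 3 (0.0624) or 4 (0.0543), and ZT16 replicate 1 (0.0686) or 4 (0.0645). In EpiRE the size was 0.49 ± 0.29 (adjusted p = 0.534) and in BRE 0.35 ± 0.21 (adjusted p = 0.433).

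Scd1 (chr19:44394455-44407879, minus strand) was not called in any genotype by the same test. In WT the mice had 54.6, 63.9, 67.4 and 73.2 RPKM at ZT12, 108, 108, 114 and 115 at ZT16 and 89.5, 106, 207 and 255 at ZT20. The ZT12 group was below all others at these times, while the ZT20 group split into 2 mice near the ZT16 values and 2 far above them. The fitted size in WT was 0.80 ± 0.30 (peak ZT23.7, adjusted p = 0.101), against 0.18 ± 0.19 in RERE, 0.24 ± 0.19 in EpiRE and 0.19 ± 0.17 in BRE. Without the 6 libraries high in sebaceous markers the WT size of Scd1 was 0.42 (adjusted p = 0.275). With the sebaceous markers as a covariate it was 0.46 in WT (adjusted p = 0.0603) and 0.34 in RERE (adjusted p = 0.0304, called).

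Elovl6 (chr3:129532355-129638495, plus strand) and Elovl5 (chr9:77917364-77984519, plus strand) were called in no genotype. Elovl6, which lengthens palmitate to stearate, had a size of 0.74 ± 0.29 in WT (adjusted p = 0.125) and 0.11 to 0.37 in the other genotypes. Elovl5, which acts on polyunsaturated chains, had 0.53 ± 0.24 in WT (adjusted p = 0.209) and 0.21 to 0.29 in the others. With the sebaceous markers as a covariate Elovl5 was called in RERE (0.37, adjusted p = 0.0206). In that covariate fit the WT size of Elovl6 was 0.39 and that of Elovl5 was 0.31. Without the 6 WT libraries high in the markers they were 0.42 (adjusted p = 0.188) and 0.55 (adjusted p = 0.101).

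**Figure D3:**
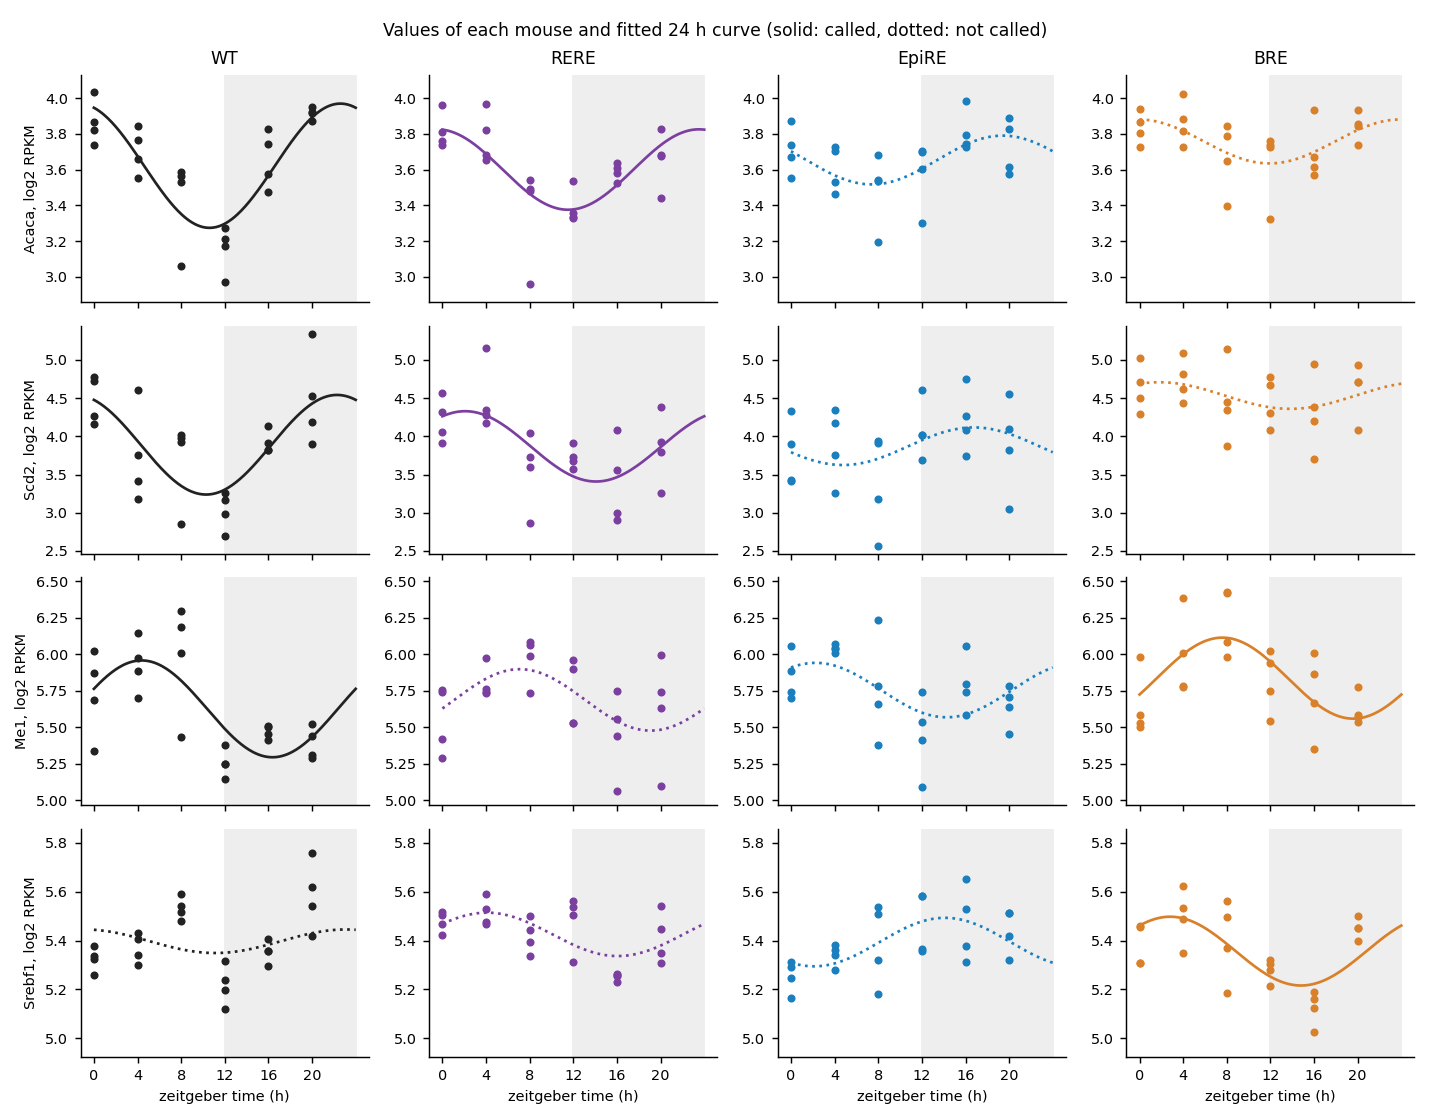
Log2 RPKM of each mouse (points) against zeitgeber time for Acaca, Scd2, Me1 and Srebf1 (rows) in WT, RERE, EpiRE and BRE (columns), with the fitted 24 h curve, solid where called and dotted where not. The curve of Acaca is deepest in WT (0.69), and the curve of Srebf1 peaks near ZT2.81 in BRE and near ZT14.1 in EpiRE.

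Differences in rhythm between 2 genotypes were tested on 48 libraries by the terms of genotype with the curve, over the same 12144 genes. WT and RERE differed in none of the 10 genes, where 0.453% of all genes were called, with Scd2 nearest (difference curve 1.11 ± 0.37, unadjusted p = 0.0168, adjusted p = 0.228). This does not show that the rhythms are alike, since differences of 0.44 ± 0.20 in Me1 and 0.46 ± 0.20 in Acly were also fitted. With time as a factor Srebf1 differed between WT and RERE (adjusted p = 0.00489), and also between WT and EpiRE (0.0344) and between WT and BRE (0.0141). The count of all genes called between WT and RERE was itself unsteady. It was 55, and fell to 17 with time as a factor, 10 after rescaling, 4 with a replicate block, 2 without any filter and 0 without the libraries high in sebaceous markers. WT and EpiRE differed in 1 gene, Acaca (8.51% of all genes called). The difference curve of Acaca was 0.55 ± 0.13, highest for EpiRE relative to WT at ZT12.0 (adjusted p = 0.015). Scd2 had a larger difference, 1.34 ± 0.40, that was not called (adjusted p = 0.0663) but was without replicate 4 (1.64, adjusted p = 0.0323). The call of Acaca was lost after rescaling (0.47, adjusted p = 0.0588), without the libraries high in sebaceous markers (adjusted p = 0.107) and without replicate 1, 2 or 3 (adjusted p = 0.151, 0.0752 and 0.0667).

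WT and BRE differed in 3 of the 10 genes, where 20.2% of all genes were called. These were Acaca (0.47 ± 0.13, adjusted p = 0.0196), Scd2 (1.13 ± 0.35, adjusted p = 0.0457) and Acly (0.57 ± 0.18, adjusted p = 0.0493). In all 3 the BRE curve was highest relative to WT near the end of the light phase, at ZT9.92, ZT9.34 and ZT10.3. Elovl6 (0.90 ± 0.33, adjusted p = 0.102), Scd1 (0.85 ± 0.35, adjusted p = 0.167) and Me1 (0.51 ± 0.20, adjusted p = 0.13) were not called. Without the libraries high in sebaceous markers none of the 3 was called (adjusted p = 0.0764 for Acaca, 0.174 for Scd2 and 0.129 for Acly), and with these markers as a covariate only Acaca was. Scd2 and Acly were also not called after rescaling (adjusted p = 0.0557 and 0.0762), without any filter (0.0813 and 0.087) or with time as a factor (0.107 and 0.0972), and Scd2 was not with a replicate block (0.0509). With time as a factor Acaca was not called (adjusted p = 0.0589), and without replicate 1, 2 or 3 it was 0.111, 0.125 and 0.0626. Scd2 and Acly were lost without each of the 4 replicates in turn (adjusted p from 0.0648 to 0.228, and from 0.0959 to 0.188).

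Between the genotypes with a restored clock, Srebf1 was the 1 member called in 2 comparisons. EpiRE and BRE differed in Srebf1 (13.9% of all genes called), by a difference curve of 0.48 ± 0.09 (adjusted p = 0.00209), with BRE highest relative to EpiRE at ZT2.52. EpiRE and RERE also differed in Srebf1 (4.04% of all genes called), by 0.36 ± 0.08 (adjusted p = 0.0217), with RERE highest relative to EpiRE at ZT3.04. Both comparisons share the EpiRE libraries. BRE and RERE differed in none of the 10 genes (4.79% of all genes called, and no member at an unadjusted p below 0.05), and their Srebf1 difference was 0.13 ± 0.09 (adjusted p = 0.791). The difference between EpiRE and BRE was lost without replicate 2 (0.0652), and that between EpiRE and RERE without each replicate in turn (0.0564 to 0.145) and without the libraries high in sebaceous markers (0.36, adjusted p = 0.11).

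Weights of the Bayesian information criterion were computed over 52 models of shared, different or absent rhythms for the 10 genes. A top model can hold rhythms that were not called above, as for Scd1, Elovl6 and Elovl5. The absence of any rhythm had the highest weight for Fasn (0.64) and Acacb (0.48). A rhythm in WT alone had it for Elovl6 (0.51) and Scd1 (0.49), and a shared rhythm of RERE and BRE had it for Srebf1 (0.42). Me1 had 0.39 for 1 rhythm shared by WT and EpiRE and another shared by RERE and BRE. The remaining genes were spread over models. Their top weights were 0.37 for Acly (shared by WT and EpiRE), 0.28 for Scd2 (separate rhythms in WT and RERE) and 0.25 for Acaca. The top model of Acaca had 1 rhythm shared by WT and RERE and another shared by EpiRE and BRE. Elovl5 had 0.24 for 1 rhythm shared by all 4. By the Akaike criterion the best model was another for 6 of the 10 genes.

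The authors' deposited tables hold 2 rhythm searches of their own, with q values by JTK_CYCLE and BIOCYCLE. In the authors' deposited table Acaca had q = 0.000715 by JTK_CYCLE and 0.0186 by BIOCYCLE in WT, and Scd2 had 0.0211 and 0.0299. In RERE Acaca had q = 0.00338 by JTK_CYCLE but 0.119 by BIOCYCLE in the authors' deposited table, and in BRE Srebf1 had 0.0408 and 0.345. Other rhythms called by the fit above had q above 0.05 by both searches. Me1 in WT had q = 0.211 and 0.116 in the authors' deposited table, and Acly in WT had 0.0896 and 0.136. Scd2 in RERE had q = 0.0685 and 0.29 in the authors' deposited table, and Me1 in BRE had 0.0909 and 0.165. Fasn had q = 1 by JTK_CYCLE in all 4 genotypes of the authors' deposited table.

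Mean levels were set side by side between genotypes but not tested, because each table was probably normalized apart. Elovl5 and Acacb were lower in BRE than in WT, and Scd2 was higher, at all 6 times. Elovl5 in WT ranged from 9.92 to 30.5 RPKM with a median of 16.1, in RERE from 11.1 to 25.1 (median 13.3), in EpiRE from 8.19 to 18.7 (median 12.6) and in BRE from 6.41 to 12.8 (median 9.75). Acacb had medians of 2.37 RPKM in WT, 2.71 in RERE, 2.80 in EpiRE, with 1.79 in BRE, and Scd2 had 15.1, 15.1, 15.2 and 23.6. Of all genotypes BRE stood apart in these 3 genes, while the ranges of the mice overlapped with WT in each.

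The mean log2 difference of BRE from WT was -0.74 for Elovl5, -0.71 for Acacb and 0.64 for Scd2, where the median of all tested genes was -0.05 and the central 90% lay between -0.32 and 0.22. The other 7 genes were within that band. RERE and EpiRE were lower than WT in Elovl5 (-0.25 and -0.32) and Elovl6 (both -0.20), outside the bands of -0.18 to 0.12 and -0.18 to 0.15, and within them in the other 8 genes. The summed level of the 7 sebaceous markers had a median of 27.5 RPKM in WT and 14.8 in BRE, and that of all 10 listed markers, with Krt79, Elovl3 and Scd3, had 378 and 330. Among libraries not high in the 7 markers the medians of Elovl5 were 13.8 RPKM in WT and 9.47 in BRE, those of Acacb 2.22 and 1.73, and those of Scd2 14.5 and 22.2. High was set by the median of each genotype, so these WT and BRE libraries were not matched in the markers. For instance, WT ZT16 replicate 4, not counted as high, had a marker sum of 33.7 RPKM, above the highest BRE library (29.0).

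**Figure D4:**
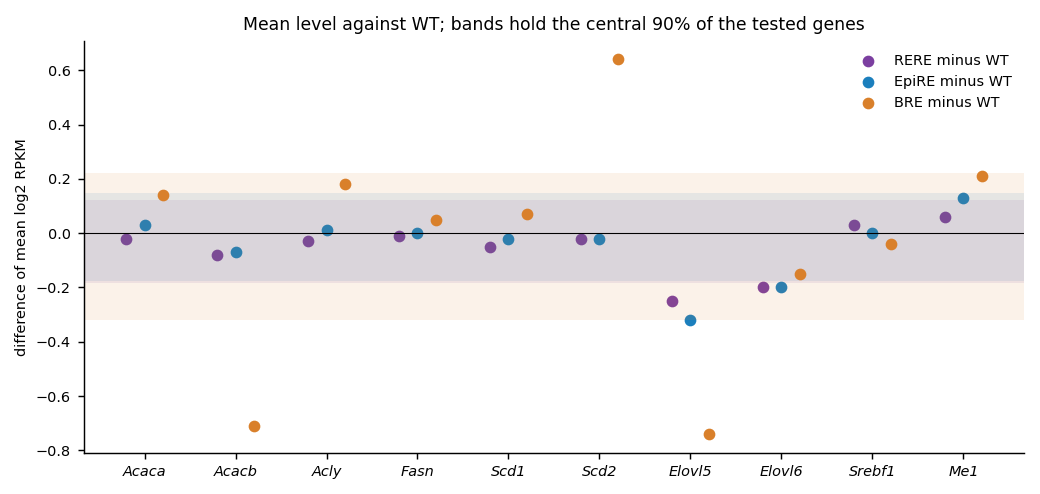
Mean log2 RPKM of RERE, EpiRE and BRE minus that of WT for each gene (points, vertical axis), with a band in the colour of each genotype that holds the central 90% of the 12144 tested genes. Elovl5 (-0.74) and Acacb (-0.71) lie below the BRE band and Scd2 (0.64) above it.

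From library to library the 10 genes moved together. Deviations from the mean of each genotype and time correlated positively in all 45 pairs over 96 libraries (Pearson r from 0.31 for Acaca with Srebf1 to 0.89 for Acacb with Scd1, median 0.59, and Spearman rho from 0.29 to 0.83). The libraries share their depth and cell makeup, so these values are a description without a test. Scd1, Elovl6, Acacb and Elovl5 followed the mean of the 7 sebaceous markers most closely (r = 0.84, 0.84, 0.82 and 0.79, with rho = 0.79, 0.80, 0.78 and 0.75). Fasn (0.57), Acly (0.52), Me1 (0.44), Scd2 (0.42), Srebf1 (0.35) and Acaca (0.28) followed it less. Leaving out the 2 libraries farthest in the markers gave r between 0.27 and 0.84. Within genotypes r was 0.74 to 0.88 for Scd1 and 0.73 to 0.89 for Elovl6, but -0.07 to 0.54 for Acaca and 0.01 to 0.72 for Scd2.

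Sebaceous markers themselves were not called rhythmic in any genotype (6 of 10 passed the filter, adjusted p from 0.221 for Scd3 in WT upward). In WT their fitted sizes ran from 0.49 ± 0.30 (Krt79, peak ZT18.3) to 0.90 ± 0.54 (Mgst1, peak ZT23.1), with 0.82 ± 0.38 for Scd3. With errors this wide, the lack of a call does not show that the markers were level over the day. Of the markers in the covariate, only Far2, Cidea and Mgst1 were tested. Scd1 was at 166 to 255 RPKM in the 6 WT libraries high in the markers and at 54.6 to 136 in the other 18, and in RERE and EpiRE too the 2 sets of libraries did not overlap. In BRE the sets overlapped (129 to 169 against 78 to 155 RPKM). Elovl6 did not overlap in RERE (31.6 to 39.2 against 15.5 to 29.9 RPKM) and EpiRE (28.4 to 40.6 against 16 to 27.7). It overlapped in WT (35.2 to 64.4 against 15.8 to 38) and in BRE (29.8 to 37.5 against 19 to 31.6). Acacb did not overlap in WT and BRE, and overlapped in RERE and EpiRE. Acaca overlapped in all 4 genotypes, with 11.8 to 16.4 RPKM against 7.85 to 15.5 in WT. How often genes in general separate in this way was not counted.

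**Figure D5:**
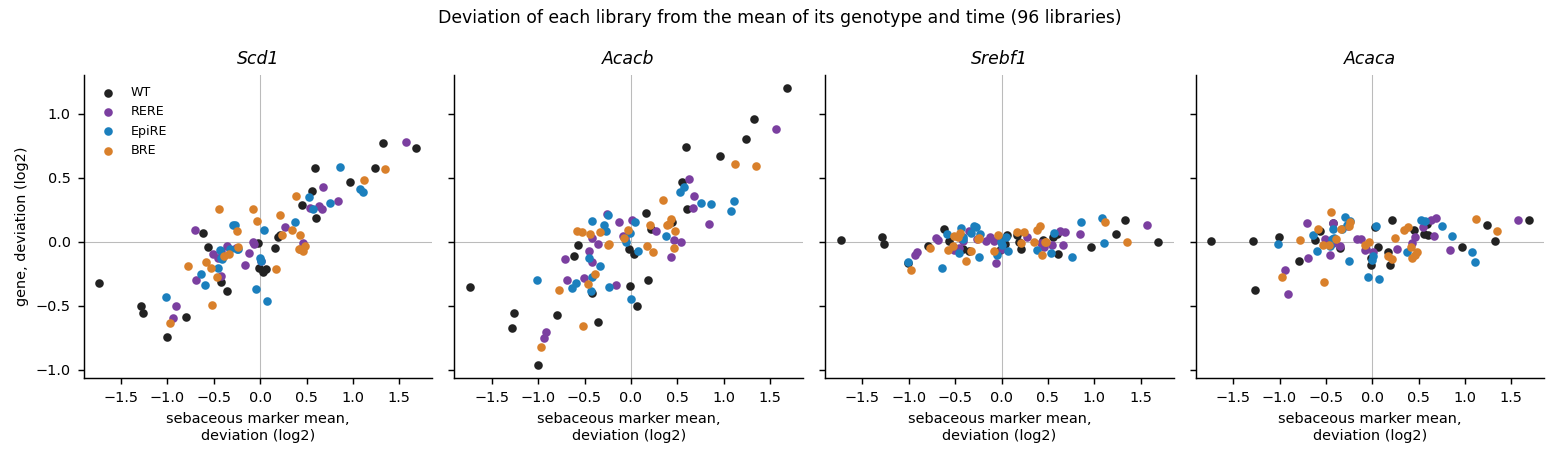
Deviation of Scd1, Acacb, Srebf1 and Acaca (vertical axes, log2) against that of the mean of 7 sebaceous markers (horizontal axes, log2), each from the mean of its genotype and time, for 96 libraries coloured by genotype. Scd1 (r = 0.84) and Acacb (r = 0.82) rise along the markers, and Srebf1 (r = 0.35) and Acaca (r = 0.28) lie closer to 0 with little slope.

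Over the 24 means of genotype and time, centred within genotype, the genes formed smaller groups. Scd1 with Elovl6 (r = 0.88), Acaca with Scd2 (0.85), Acacb with Elovl6 (0.81) and Acacb with Scd1 (0.80) were most alike. For Me1 r ran from -0.10 with Elovl5, -0.04 with Fasn, -0.03 with Acaca and 0.06 with Scd2 through 0.18 with Srebf1, 0.33 with Acacb and 0.35 with Acly to 0.48 with Elovl6 and 0.50 with Scd1. Among all genes averaging 10 RPKM or more the courses most like Acaca were those of Pigk (0.93), Rdh11 (0.92) and Leo1 (0.90), and those most like Me1 were Acer3 (0.93), Gdi2 (0.91) and Sh3bgrl2 (0.90). Acly was most like Ermp1, Hsdl2 and Cdr2 (all 0.91), Scd2 like Usp5 (0.88), Filip1l (0.87) and Rnf7 (0.86), and Srebf1 like Vps25, Sumo3 (both 0.86) and Slc50a1 (0.85). Among the courses most like Elovl6 were Scd1 (0.88) and Plin2 (0.85), and among those most like Acacb were Plin2 (0.84) and Elovl6 (0.81). Scd1 was most like Elovl6 (0.88), Hsd17b12 (0.87) and Fahd1 (0.86), Elovl5 like Fahd1 (0.78), Ddx1 and Hsd17b12 (both 0.75), and Fasn like Eif4enif1 (0.76) and Actl6a (0.74).

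Other genes of the pathway were taken from fixed lists of neighbouring steps, again with limma and the adjustment over all 12144 genes. Their counts stand against the shares of all tested genes called, which were 34.4% (WT), 16.4% (RERE), 17.1% (BRE) and 2.87% (EpiRE), and nothing particular to a list is read from them. Many of these calls were lost when libraries were left out. Of the genes these lists could name 24 had a called rhythm in WT, of which 13 were still called without the libraries high in sebaceous markers, and 8 in every one of 28 fits that left out a replicate number or a single library. For RERE these numbers were 14, 9 and 7, for EpiRE 2, 1 and 0, and for BRE 15, 1 and 1. Calls over all genes fell too without the libraries high in sebaceous markers, from 4174 to 3365 in WT and from 1993 to 1335 in RERE. They fell from 349 to 62 in EpiRE and from 2072 to 422 in BRE. How many of all genes were called in every one of the 28 fits was not counted. Where such losses are given for a gene below, they are a number of these 28 fits, or, for differences between genotypes, of the 4 that left out a replicate number.

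Of 10 genes for acetyl-CoA, citrate and NADPH supply, 5 were called in WT, 5 in RERE, none in EpiRE (1 at an unadjusted p below 0.05; the smallest adjusted p was 0.226, for Tkt) and 6 in BRE. The citrate carrier Slc25a1, which exports citrate for Acly, was called in WT (0.51 ± 0.14, peak ZT23.1, adjusted p = 0.0217), RERE (0.51 ± 0.09, ZT2.34, 0.0016) and BRE (0.43 ± 0.10, ZT4.5, 0.0153). Malate dehydrogenase Mdh1, which feeds malate metabolism beside Me1, was called in WT (0.27 ± 0.05), RERE (0.23 ± 0.06) and BRE (0.35 ± 0.06), with adjusted p = 0.00136, 0.0228 and 0.00204. The RERE call of Mdh1 was lost in 4 fits and without the libraries high in sebaceous markers (0.094). In BRE Mdh1 was still called without them (0.0264), where Slc25a1 was not (0.114). In WT Slc25a1 was at 0.0535 without them. G6pdx, the entry enzyme of the pentose phosphate pathway, was called in WT (0.37 ± 0.10, adjusted p = 0.0231, lost in 3 fits). The median size in this list was 0.28 in WT, 0.19 in RERE, 0.10 in EpiRE, with 0.32 in BRE. The transketolase Tkt differed between EpiRE and BRE (0.51 ± 0.09, adjusted p = 0.000909), between EpiRE and RERE (0.33 ± 0.08, 0.0379) and between WT and BRE (0.38 ± 0.10, 0.0204). The first of these was kept in all 4 fits, and each of the others was lost in 3. Leaving out the libraries high in sebaceous markers gave adjusted p = 0.0719, 0.337 and 0.0439.

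Of 13 tested genes of SREBP and lipogenic transcription control, 4 were called in WT, 2 in RERE, 1 in EpiRE, with 3 in BRE. Srebf2, the paralogue that drives cholesterol genes, was called in RERE (0.37 ± 0.10, peak ZT4.63, adjusted p = 0.0291) and BRE (0.32 ± 0.07, ZT4.04, 0.00917), with losses in 7 and 2 fits. Neither was called without the libraries high in sebaceous markers (0.0825 and 0.0678). Scap, the escort of SREBP proteins, was called in RERE (0.13 ± 0.02, adjusted p = 0.00136) and was lost in none of the 28 fits. The site-2 protease Mbtps2, which frees active SREBP, was called in WT (0.20 ± 0.06, adjusted p = 0.0232) and BRE (0.20 ± 0.05, 0.0328), and the coactivator Ppargc1b in WT (0.59 ± 0.11, peak ZT15.7, 0.000783) and BRE (0.70 ± 0.17, ZT21.8, 0.0219). The calls of Mbtps2 were lost in 5 and 8 fits, and that of Ppargc1b in BRE in 3, and of these 4 calls only that of Ppargc1b in WT was kept without the libraries high in sebaceous markers (0.0255). Ppargc1b also differed between WT and BRE (0.93 ± 0.20, adjusted p = 0.00304, lost in 1 of 4 fits). In EpiRE Nr1h2, an LXR receptor, was the 1 gene called (0.25 ± 0.05, peak ZT11.2, adjusted p = 0.0176). That call was lost without each of the 4 replicates in turn (up to 0.109) and without the libraries high in sebaceous markers (0.0602).

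Downstream, of 15 genes for acyl-CoA activation and glycerolipid synthesis, 6 were called in WT, 4 in RERE, 1 in EpiRE, with 2 in BRE. Agpat3, an acyltransferase of phosphatidate synthesis, was called in all 4 genotypes, in WT and RERE in all 28 fits. Its sizes were 0.94 ± 0.08 in WT, 0.80 ± 0.08 in RERE, 0.35 ± 0.07 in EpiRE, with 0.20 ± 0.06 in BRE (adjusted p = 1.44e-07, 1.45e-06, 0.0197 and 0.0417), and it differed between WT and EpiRE (adjusted p = 0.000483) and between WT and BRE (9.56e-08). The call in BRE was lost in 16 fits and without the libraries high in sebaceous markers (0.211), and the call in EpiRE in 3 fits (adjusted p up to 0.169). Acsl5, which activates long-chain acids, was called in WT (0.63 ± 0.08, peak ZT22.8) and RERE (0.54 ± 0.04, ZT22.3) and differed between WT and BRE (0.68 ± 0.09, adjusted p = 4.56e-06). Gpam, the first acyltransferase of glycerolipid synthesis, was called in RERE with a peak at ZT11.9 (0.68 ± 0.11, adjusted p = 0.000647). Dgat2, a last-step enzyme of triglyceride synthesis, was called in BRE (0.64 ± 0.19, adjusted p = 0.0492), a call lost in 21 fits and without the libraries high in sebaceous markers (0.142). Dgat1 differed between WT and RERE (0.41 ± 0.08, adjusted p = 0.0488), which was lost in all 4 fits (up to 0.242) and without those libraries (0.0789).

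Of 11 tested genes of other elongation and desaturation enzymes, 3 were called in WT and 2 in BRE, and none in RERE or EpiRE (2 and 1 at an unadjusted p below 0.05; smallest adjusted p 0.0663 and 0.101). In WT these were the enzymes that complete each elongation cycle, the reductases Hsd17b12 (0.46 ± 0.11, peak ZT22.7, adjusted p = 0.00764) and Tecr (0.25 ± 0.08, ZT23.1, 0.0427) and the dehydratase Hacd3 (0.30 ± 0.07, ZT20.6, 0.00896). In BRE they were Elovl1 (0.36 ± 0.10, adjusted p = 0.0337) and Hacd2 (0.31 ± 0.09, 0.0437). The calls of Tecr, Elovl1 and Hacd2 were lost in 18, 10 and 21 fits, and without the libraries high in sebaceous markers (0.0831, 0.0745 and 0.255). Elovl4, which makes the very long chains of barrier ceramides, differed between WT and BRE (1.14 ± 0.28, adjusted p = 0.0104) and between EpiRE and BRE (0.89 ± 0.26, 0.0444), lost in 2 and in all of the 4 fits.

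Of 10 tested genes of AMPK and malonyl-CoA control, 5 were called in WT, 3 in RERE, none in EpiRE (2 at an unadjusted p below 0.05) and 2 in BRE. Cpt1a, the mitochondrial import enzyme that malonyl-CoA inhibits, was called in WT (0.41 ± 0.10, peak ZT4.84, adjusted p = 0.012), RERE (0.45 ± 0.09, ZT6.88, 0.0047) and BRE (0.49 ± 0.12, ZT4.92, 0.0227), and it reached 0.34 ± 0.09 in EpiRE (adjusted p = 0.0824). Cpt1a was called in RERE (0.0272) but not in WT (0.171) or BRE (0.15) without the libraries high in sebaceous markers. The catalytic AMPK subunits Prkaa1 (0.19 ± 0.05, adjusted p = 0.00981) and Prkaa2 (0.35 ± 0.09, 0.0131) were called in WT, and each was lost in 2 fits. The fitted peaks of Cpt1a fell in the light phase, and that of Acaca in WT fell at ZT22.6.

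Of 8 tested genes of mitochondrial fatty acid synthesis 2 were called in WT, the acyl carrier protein Ndufab1 (0.41 ± 0.08, adjusted p = 0.00145) and the reductase Cbr4 (0.35 ± 0.09, 0.0185, lost in 3 fits). In BRE 1 was called, the synthase Oxsm (0.40 ± 0.11, adjusted p = 0.0337, lost in 10 fits), and none in RERE or EpiRE (1 and 2 at an unadjusted p below 0.05; smallest adjusted p 0.0539 and 0.166). Of 13 tested genes of cholesterol synthesis, 3 were called in WT, 1 in RERE, none in EpiRE (0 at an unadjusted p below 0.05; smallest adjusted p 0.365) and 1 in BRE. Those in WT included the mevalonate pathway enzymes Mvd (0.97 ± 0.27) and Mvk (0.40 ± 0.13), with adjusted p = 0.0261 and 0.0441. Mvk was called in RERE (0.41 ± 0.11, adjusted p = 0.0389) and in BRE (0.35 ± 0.09, 0.028). The calls of Mvd and Mvk in WT were lost in 7 and 17 fits, and those of Mvk in RERE and BRE in 14 and 6. None of these 4 was called without the libraries high in sebaceous markers (adjusted p = 0.112, 0.125, 0.0958 and 0.172). The median size in the cholesterol list was 0.43 in WT, 0.49 in RERE, 0.17 in EpiRE, with 0.26 in BRE.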

How the data were processed

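RNA of dispase-separated epidermis cells was sequenced from 96 mice. Reads were made from poly(A) RNA with a stranded kit, per the labels' protocols. Per the submitters' processing notes the tools were Trimmomatic 0.36, HISAT2 2.2.1, SAMtools 1.3.1, featureCounts 1.6.0 and edgeR, with mm10. The deposited values are log2 RPKM with a prior count, judged from the values and not stated in the files, in 1 table per genotype. Depth was estimated from the floor that this prior leaves, so it is approximate. Each deposited table also gives the authors' q values (JTK_CYCLE and BIOCYCLE), copied as they stand. A further 96 sample columns that belong to the JTK_CYCLE tables were not used.

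Of 22384 genes in all 4 tables, 12144 with a mean of at least 1 RPKM were tested in limma 3.58.1 (R 4.3.3) with a mean-dependent prior variance. The model held a 24 h cosine and sine within a genotype (24 libraries), or their products with genotype for each of 6 pairs (48 libraries), and the F test was adjusted by Benjamini-Hochberg over all 12144 genes. A difference curve is the second named genotype minus the first. Named members are all 10 genes. From each pathway list up to 4 genes per comparison were eligible to be named, called genes first, by adjusted p. Some genes that these rules would name are not reported here. The members and lists were chosen with earlier results of these data known. The scripts were tested on simulated data. P-values rest on the spread of mice around the fitted curve, with each library taken as 1 mouse. That spread includes any departure of the time means from a 24 h curve. With time as a factor it is the spread between mice of the same genotype and time. Replicate numbers showed no clear pairing of the samples. The strand setting of the counting and the handling of reads that match several genes are not given in the sources used here. The alternatives were rescaling, filters, another log offset, time as a factor, a replicate block and leaving out libraries. A covariate of sebaceous markers and leaving out the libraries high in them were chosen after seeing the data.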

Additional observations from a re-analysis of the deposited data

Results flagged for a closer look

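Among 240 groups of 4 mice (10 genes at 6 times in 4 genotypes), 17 held a mouse far from the other 3 by Dixon's gap test at the 95% level, 7 of them high and 10 low. Chance alone flags about 1 group in 20. Values are RPKM. In WT at ZT0 replicate 4 was high in Acacb (6.36, others 1.95 to 2.18), Scd1 (190, others 91.2 to 99.2) and Elovl6 (64.4, others 22.5 to 25.7), and this library is 1 of the 6 in WT high in sebaceous markers; the part of those markers was not tested. In WT at ZT8 replicate 1 was low in Acaca (8.34, others 11.5 to 12.0) and Scd2 (7.22, others 15.2 to 16.1). In WT at ZT12 replicate 1 was high in Acacb (2.25) and replicate 3 low in Acly (38.4).

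In RERE at ZT8 replicate 2 was low in Acaca (7.78) and Elovl5 (11.1). At ZT12 replicate 4 was high in Acaca (11.6) and replicate 1 low in Elovl5 (11.1). Replicate 3 was low in Srebf1 at ZT16 (37.5) and high in Me1 at ZT4 (62.9). In EpiRE replicate 3 was high in Fasn at ZT4 (42.9, others 30.3 to 31.8). In BRE at ZT12 replicate 4 was low in Fasn (23.7, others 40.6 to 41.4) and Acaca (10.0, others 13.2 to 13.5), and at ZT0 replicate 1 was low in Fasn (33.7).

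The remaining entries are the called differences in rhythm between genotypes (limma, adjusted p). They were Acaca between WT and EpiRE (0.015) and between WT and BRE (0.0196), Scd2 (0.0457) and Acly (0.0493) between WT and BRE, and Srebf1 between EpiRE and RERE (0.0217) and between EpiRE and BRE (0.00209).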

How the results depend on the processing

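No called rhythm or difference of a member moved its peak by more than 6 h in any alternative run. Results not called in the main fit were not judged for such a move. With log2(RPKM + 1) no member's call changed, nor with a filter at a mean of 10 RPKM for the 9 members it keeps (all but Acacb). The numbers of members called moved beyond 1.5 times as follows, and in WT, with 4, there were 5 with time as a factor and 3 without the libraries high in sebaceous markers. Without any filter there were 1 in RERE and 1 between WT and BRE. After rescaling there were 1 in BRE, 0 between WT and EpiRE, 1 between WT and BRE and 2 between EpiRE and BRE. With time as a factor there were 1 in BRE, 1 between WT and RERE, 2 between WT and EpiRE and 1 between WT and BRE. With the sebaceous covariate there were 4 in RERE, 1 between WT and BRE and 2 between EpiRE and BRE. Without the libraries high in sebaceous markers there were 1 in RERE and 0 in BRE, between WT and EpiRE, between WT and BRE and between EpiRE and RERE. The cause was not tested. Members reaching a model weight of 0.4 numbered 5 by the Bayesian and 0 by the Akaike criterion.

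Counts over all genes moved by more than 1.5 times as follows. The 10 RPKM filter, which tests fewer genes, gave 2342 in WT, 1071 in RERE, 209 in EpiRE, 1182 in BRE, and for differences 448 (WT and EpiRE), 1569 (WT and BRE), 253 (EpiRE and RERE), 249 (BRE and RERE) and 949 (EpiRE and BRE). Time as a factor gave 1306 in RERE, and 17 (WT and RERE), 629 (WT and EpiRE), 1584 (WT and BRE), 276 (EpiRE and RERE) and 907 (EpiRE and BRE). No filter gave 180 in EpiRE, 1350 in BRE and 2 between WT and RERE. Rescaling gave 10 between WT and RERE and 654 between WT and EpiRE. The sebaceous covariate gave 223 in EpiRE and 185 between WT and RERE. Without the libraries high in those markers there were 62 in EpiRE, 422 in BRE, 0 between WT and RERE, 658 between WT and EpiRE, 64 between EpiRE and RERE, 315 between BRE and RERE and 382 between EpiRE and BRE.

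Leaving out replicates or libraries gave 3 to 4 members and 2065 to 4544 genes in WT, 1 to 4 and 1034 to 2263 in RERE, 0 and 6 to 550 in EpiRE, and 0 to 2 and 211 to 2787 in BRE. For differences, where replicate numbers but no single libraries were left out, it gave 0 and 0 to 2 (WT and RERE), 0 to 2 and 145 to 1376 (WT and EpiRE), 0 to 1 and 1012 to 1873 (WT and BRE), 0 and 74 to 256 (EpiRE and RERE), 0 and 188 to 714 (BRE and RERE), and 0 to 1 and 383 to 1313 (EpiRE and BRE).

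The replicate block gave 206 genes in EpiRE and 4 between WT and RERE. Under the block Scd2 between WT and BRE was lost (adjusted p = 0.0509) and Me1 in RERE was called (0.0497), and it changed no other member's call. The median r of deviations per genotype was -0.021 to 0.0062 for same-numbered libraries and -0.026 to 0.0041 for the others. Same-numbered pairs had r over 0.1 in 15 to 21 of 60 per genotype, with a lowest r of -0.41 to -0.31. The pairs over 0.1 were not counted among the others. Of 24 libraries 4 to 10 correlated best with their own number.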
